A study of Mus musculus with 18 samples.

Results

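The genes described here are 10 genes of ovarian steroid synthesis and of gonadotropin and estrogen reception, namely Star, Cyp11a1, Hsd3b1, Cyp17a1, Hsd17b1, Cyp19a1, Lhcgr, Fshr, Esr1 and Esr2. They were chosen by gene symbol in the deposited TPM (transcript abundance scaled for length and depth) table and joined to the raw counts by Ensembl identifier, and all 10 were found among 53715 counted genes. RNA was sequenced from 18 libraries of mouse oocytes (C57Bl/6j x CBA/J, obtained in vivo), 3 in each of 6 groups. Oocytes from primordial follicles and oocytes from primary follicles were cut out by laser microdissection, and mature oocytes at metaphase of the second meiotic division (MII) were collected whole. Each stage had a sham group and a group named NTY, a name that the labels do not explain, and no age or other allele or agent is given for any group. Primordial and primary follicle RNA was pooled by stage from several caps, amplified and enriched by a capture kit, whereas MII RNA went through Smart-seq II. Stage and library method therefore cannot be told apart between MII and microdissected libraries. Nothing in the labels says that the 3 libraries of a group came from separate animals, so p-values measure only the spread between libraries. Primary NTY 2 and primary NTY 3 carry nearly the same library code (2E and 2E2) and may be related material.

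The follicle makes steroids in steps. STAR carries cholesterol into the mitochondrion, CYP11A1 cleaves its side chain to pregnenolone, HSD3B enzymes convert pregnenolone to progesterone, CYP17A1 makes androgens in theca cells, and CYP19A1 (aromatase) and HSD17B1 make estradiol in granulosa cells. Luteinizing hormone acts through LHCGR on theca cells and on mature granulosa cells, and follicle stimulating hormone acts through FSHR on granulosa cells. Estradiol is read by ESR1, found mainly in theca and stroma, and by ESR2, found mainly in granulosa cells. Oocytes are not usually counted among the steroid-making cells of the ovary.

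The promoters of Cyp19a1 and Esr2 are shown because these were the 2 genes whose MII and microdissected libraries did not overlap. RefSeq start sites gave 11 windows of 250 bases upstream for 7 of the 10 genes (build GRCm38.p6), and no entry was matched for Star, Cyp17a1 and Hsd17b1. Capitals mark TATAAA on either strand, which can overlap itself, and every sequence is written 5′ to 3′ on the gene's minus strand. The first 3 lines are the Cyp19a1 windows at chr9:54268165-54268414, chr9:54228915-54229164 and chr9:54193744-54193993, and the fourth is Esr2 at chr12:76177260-76177509.
Cyp19a1 most distal start: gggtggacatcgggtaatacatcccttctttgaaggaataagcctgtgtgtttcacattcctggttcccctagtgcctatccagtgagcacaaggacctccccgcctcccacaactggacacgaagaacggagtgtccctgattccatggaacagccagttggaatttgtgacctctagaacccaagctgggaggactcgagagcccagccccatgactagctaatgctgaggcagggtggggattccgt
Cyp19a1 middle start: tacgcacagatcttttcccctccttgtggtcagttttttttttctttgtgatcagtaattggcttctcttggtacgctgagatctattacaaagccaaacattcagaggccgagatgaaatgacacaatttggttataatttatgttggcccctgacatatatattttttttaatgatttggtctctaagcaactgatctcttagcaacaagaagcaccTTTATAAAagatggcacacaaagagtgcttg
Cyp19a1 most proximal start: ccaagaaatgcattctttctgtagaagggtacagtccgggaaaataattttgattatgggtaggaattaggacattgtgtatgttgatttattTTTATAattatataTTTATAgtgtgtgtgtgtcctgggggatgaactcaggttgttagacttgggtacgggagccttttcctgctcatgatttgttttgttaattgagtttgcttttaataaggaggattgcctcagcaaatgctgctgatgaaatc
Esr2 start: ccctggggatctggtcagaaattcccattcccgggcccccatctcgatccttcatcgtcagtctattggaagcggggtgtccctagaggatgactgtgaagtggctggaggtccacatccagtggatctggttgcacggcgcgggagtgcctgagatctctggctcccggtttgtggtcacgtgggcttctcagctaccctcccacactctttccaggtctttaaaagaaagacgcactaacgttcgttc
The TATAAA motif was found in 2 of the 3 Cyp19a1 windows, in no other window of the 10 genes, and in 12.4% of all 32851 promoter windows of this length. The other motifs were likewise searched on both strands. CAAGGTCA, the NR5A site (1.33% of all windows), and TGACGTCA, the cyclic AMP response element (1.55%), were in none of the 11 windows. The shorter TGACG, which lies within TGACGTCA, was in 1 Cyp11a1 window and in Esr2 (17.8% of all windows), and the site of GATA factors, searched as AGATAA, was in the window of Hsd3b1 (9.99%). These matches describe letters only. The counts are per gene and do not show which Cyp19a1 start was used.

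Total counts were 15149564 to 29205503 in the 12 microdissected libraries and 8652089 to 9978830 in the 6 MII libraries. A level of 3 counts, below which a gene was treated as near background, was 0.103 to 0.198 CPM (counts scaled to library size) in the former and 0.301 to 0.347 CPM in the latter, and these levels cover counting error only. The MII label matched its markers: the summed level of 10 genes of oocyte growth was 6996 to 11331 CPM, against 1.89 to 640 CPM in microdissected libraries. The microdissected libraries also held markers of other cells. Their summed level of 10 granulosa markers was 778 to 4965 CPM against 8.62 to 24.4 CPM in MII, and that of 6 stroma markers was 1376 to 17910 CPM against 0 to 2.91 CPM. Not every such list was low in MII. The summed level of 5 luteal markers was 104 to 172 CPM against 0 to 19.1 CPM, mostly from the prolactin receptor Prlr (970 to 1420 counts), with Akr1c18, Sfrp4 and Parm1 at 0 in all 6 MII libraries. That of 5 endothelial markers was 109 to 174 CPM in MII against 0.043 to 831 CPM, mostly from Pecam1 (777 to 1353 counts), with Cdh5 at 0. The part of these markers in the levels below was not tested. Primordial NTY 3 stood apart, with the lowest oocyte growth level of all (1.89 CPM) and a single read of the zona pellucida gene Zp3. Its sum of 8 early oocyte markers was the highest of all (3491 CPM), of which Foxo3, a gene active in many cell types, gave 94231 counts, Ddx4 1 and Figla 0. Its cumulus marker sum of 344 CPM, against 0 to 2.80 CPM in the other microdissected libraries, came from Pfkp, a widely used enzyme of glycolysis, with the other 7 cumulus markers at 0. In bulk samples like these, fewer cells of a type and less RNA per cell cannot be told apart.

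**Figure D1:**
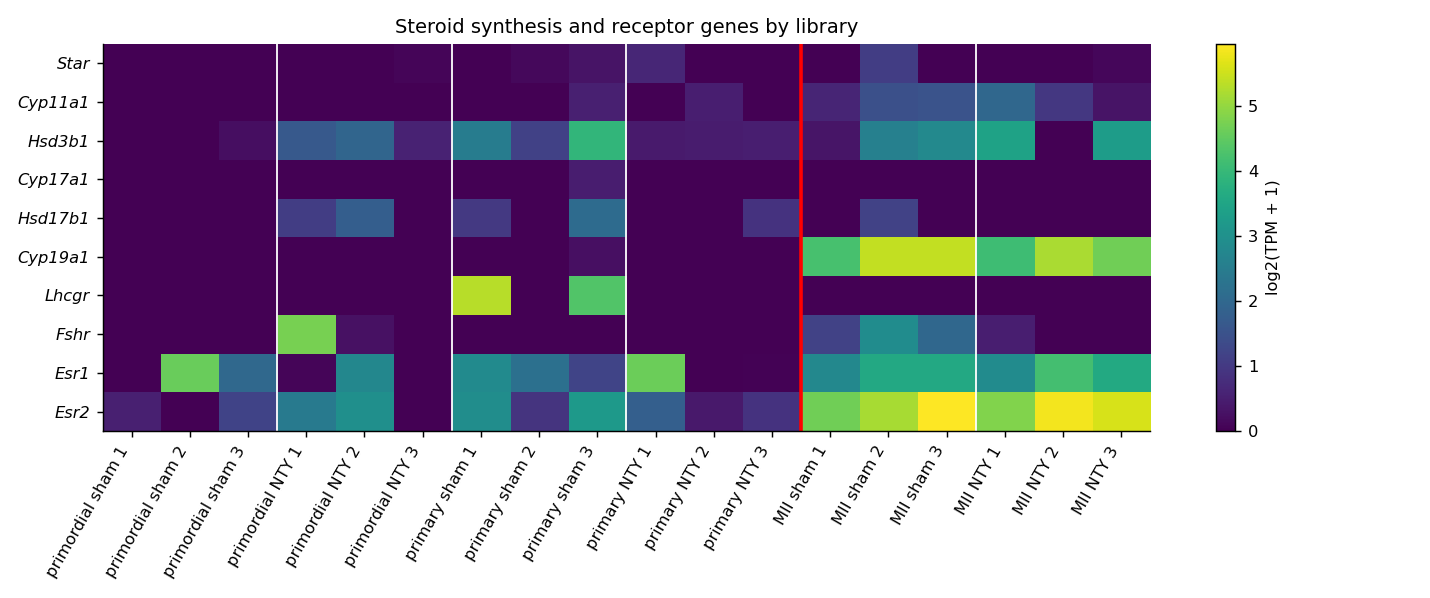
Level of the 10 genes in each of 18 libraries as log2(TPM + 1), with genes in rows, libraries in columns and the red line between microdissected (left) and MII libraries (right). Cyp19a1 is filled in all 6 MII libraries (16.2 to 41.4 TPM) and nearly empty elsewhere, while Lhcgr, Fshr and Esr1 are high in single microdissected libraries.

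Across the 10 genes, 41 of 120 gene and library pairs held over 3 counts in microdissected libraries (34.2%), and 33 of 60 did so in MII libraries (55.0%). The same shares over the 15929 genes tested across all libraries were 50.3% and 78.7%. Primary sham 3 held over 3 counts of 9 of the 10 genes, against 1 to 5 in the other microdissected libraries and 4 to 8 in MII. That library also had the most genes with any count of the microdissected set (13755, the lowest being 6147 in primordial sham 1). The part of this in the number of the 10 genes found was not tested. After the filter on low counts, 4 of the 10 genes were tested among microdissected libraries, 6 among MII libraries and 7 across both.

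Within MII oocytes, the order of median TPM was Esr2 (41.2), Cyp19a1 (29.7), Esr1 (11.1), Hsd3b1 (5.5), Cyp11a1 (1.34) and Fshr (0.837), and the other 4 genes had a median of 0. Esr2 was above Cyp19a1 in 5 of 6 libraries (exact sign-flip permutation p = 0.0625), so these neighbours did not differ beyond their spread. Cyp19a1 was above Esr1 in 6 of 6 libraries (exact sign-flip permutation p = 0.03125, the smallest that 6 libraries allow). Esr1 and Hsd3b1 (p = 0.09375), Hsd3b1 and Cyp11a1 (p = 0.15625) and Cyp11a1 and Fshr (p = 0.96875) were not separated by the same exact test. These are 5 unadjusted two-sided tests. They compare TPM, so the order depends on gene length (merged exons of 4522 bases for Cyp19a1 and 13661 for Esr1). By counts Esr1 was above Cyp19a1 in MII sham 1 (339 against 334) and in MII NTY (296, 803 and 520 against 250, 556 and 369). It was below Cyp19a1 in MII sham 2 (530 against 655) and MII sham 3 (495 against 611). Among microdissected libraries the order of median TPM was Esr1 (2.18), Esr2 (1.08) and Hsd3b1 (0.441), with every other median at 0 and ranges that overlapped throughout.

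Star and Cyp17a1 were barely detected. Star, on chromosome 8 (25806555 to 25815982, GRCm38), had 0, 3 and 8 counts in primary sham, 18, 0 and 0 in primary NTY, 0, 0 and 2 in primordial NTY and none in primordial sham. In MII it had 0, 16 and 0 counts in sham and 0, 0 and 1 in NTY. Only 3 of 18 libraries passed 3 counts, 1 each in primary sham, primary NTY and MII sham, and the gene was not tested in any fit. Cyp17a1 (chromosome 19, 46667165 to 46673172), the androgen-forming step, was at 0 in 17 libraries and had 7 counts in primary sham 3. A Cyp17a1 level under 0.301 to 0.347 CPM was not detectable in MII.

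Cyp11a1 (chromosome 9, 58006411 to 58027023) was detected in every MII library, with 11, 29 and 29 counts in sham and 49, 16 and 4 in NTY. Among microdissected libraries it had 17 counts in primary sham 3, 14 in primary NTY 2 and 0 in the other 10. Its MII level, 0.245 to 2.98 TPM, overlapped the highest microdissected level of 0.440 TPM. A long noncoding gene on the same strand, Gm17322, overlaps an exon of Cyp11a1 and collected 371 counts over all libraries, so reads of the pair may not be fully separated.

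Cyp19a1, aromatase (chromosome 9, 54165937 to 54268110), was detected throughout MII. The counts were 334, 655 and 611 in MII sham and 250, 556 and 369 in MII NTY, or 17.5, 41.1 and 41.4 TPM and 16.2, 35.4 and 24.0 TPM. In the microdissected set, primary sham 3 had 7 counts (0.193 TPM) and the other 11 libraries had 0. The groups did not overlap. The lowest MII level, 28.6 CPM, was at least 145-fold higher than the 3-count level of any of the 11 libraries at 0, and 95.7-fold that of primary sham 3. Among 4800 genes with at least 100 counts in each MII library, 404 (8.42%) were likewise at 3 counts or fewer in at least 11 of the 12 microdissected libraries.

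Granulosa cells are the usual ovarian source of aromatase, so their markers are given beside it. Foxl2, Wt1, Amhr2 and Fst were at 0 counts in all 6 MII libraries, whereas Wt1 had 3998 to 66312 counts in each of the 12 microdissected ones. The other 6 of the 10 granulosa markers were not all absent from MII. Kitl, the ligand of KIT, had 27 to 164 counts in every library, Inha 0 to 129, Gja1 0 to 88, Inhba 0 to 59, and Amh and Inhbb 0 to 2. Of the 10 markers 7 were lower in MII by edgeR and none higher, and Kitl (-2.52, adjusted p = 0.152), Inhba (1.02, adjusted p = 0.463) and Inhbb did not pass. The summed level of 8 cumulus cell markers was 2.77 to 10.02 CPM in MII, with Areg, Ereg, Ptx3 and Sult1e1 among the 5 at 0 throughout. Pfkp had 24 to 52 counts in each MII library, and Has2 and Ptgs2 were over 0 in 2 each. The part of residual follicle cells in the aromatase level was not tested.

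**Figure D2:**
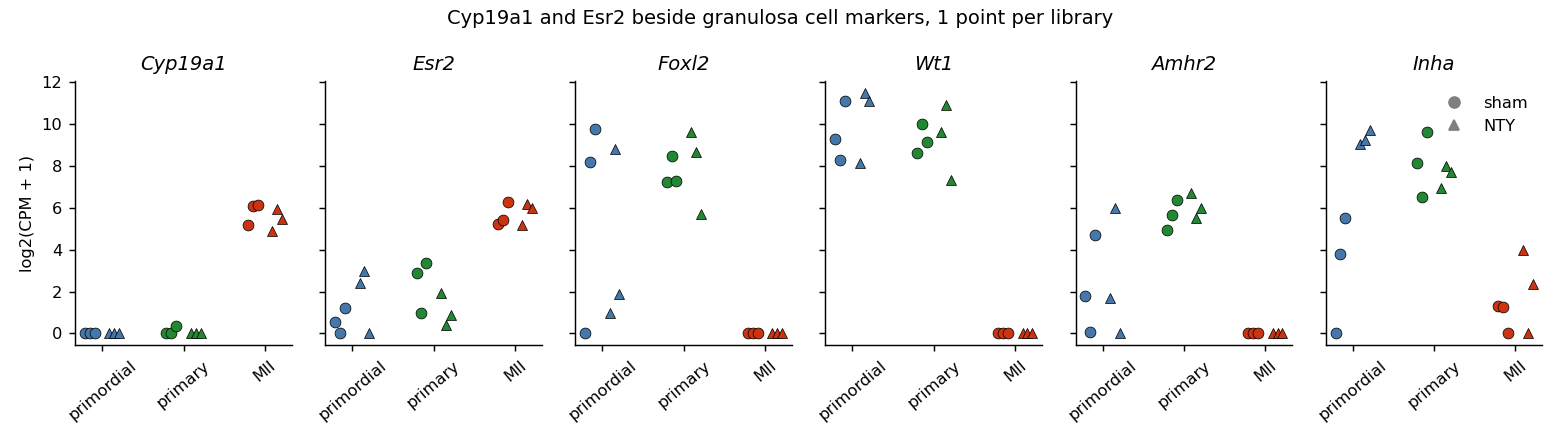
Level of Cyp19a1, Esr2 and 4 granulosa markers as log2(CPM + 1) by stage, 1 point per library, with circles for sham and triangles for NTY. The MII libraries lie at 0 for Foxl2, Wt1 and Amhr2 and above every microdissected library for Cyp19a1 and Esr2.

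Hsd17b1 (chromosome 11, 101078411 to 101080527), which reduces estrone to estradiol, had at most 35 counts in any library. It had 9, 0 and 35 counts in primary sham, 10, 23 and 0 in primordial NTY, 0, 0 and 9 in primary NTY and none in primordial sham. In MII a single sham library held 6 counts and the other 5 were at 0. The fit across all libraries could not estimate its fold change.

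Hsd3b1 (chromosome 3, 98852194 to 98859794) was the synthesis gene found most widely. It had 0, 0 and 2 counts in primordial sham, 27, 37 and 7 in primordial NTY, 59, 17 and 210 in primary sham and 5, 5 and 6 in primary NTY. In MII the counts were 2, 33 and 36 in sham and 62, 0 and 55 in NTY. Its closest relatives took few reads: Hsd3b6 had 12 counts and Hsd3b2 had 3 in the microdissected set, neither had any in MII, and Hsd3b3, Hsd3b4 and Hsd3b5 were at 0 everywhere. Of the stretches of 50 bases in the Hsd3b1 transcript, 4.98% also occur in another gene, so reads of those stretches may not be fully separated. This share does not cover the counting error of its low counts. Hsd3b7, a related enzyme of bile acid synthesis, had 2754 counts in MII, more than the 188 of Hsd3b1.

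The estrogen receptors differed in evenness. Esr2 (chromosome 12, 76120419 to 76177259) had 343, 417 and 666 counts in MII sham and 311, 662 and 540 in MII NTY, or 24.1 to 60.6 TPM. It had 7, 0 and 28 counts in primordial sham, 99, 161 and 0 in primordial NTY, 153, 22 and 219 in primary sham and 67, 8 and 22 in primary NTY, or 0 to 8.09 TPM. Every MII library lay above every microdissected one.

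Esr1 (chromosome 10, 4611593 to 5005614) had 339, 530 and 495 counts in MII sham and 296, 803 and 520 in MII NTY, or 5.87 to 16.9 TPM. Among microdissected libraries its counts ran from 0 to 2693: 0, 2693 and 267 in primordial sham, 6, 555 and 1 in primordial NTY, 587, 371 and 146 in primary sham and 2537, 0 and 2 in primary NTY. The highest, 23.1 TPM in primordial sham 2 and 23.4 TPM in primary NTY 1, exceeded every MII library, and 4 libraries of the set were at 3 counts or fewer.

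Per length, Esr2 was above Esr1 in 6 of 6 MII libraries, with an Esr2 to Esr1 ratio of TPM between 3.19 and 5.46 and a median of 4.16 (exact sign-flip permutation p = 0.03125, two-sided, the smallest possible). The mean log2 ratio was 2.01 ± 0.28 (SD, n = 6). In counts the 2 genes were close in MII, with 2983 in total for Esr1 and 2939 for Esr2. Their merged exons span 13661 bases for Esr1 and 3368 for Esr2, so the ratio of TPM depends on the lengths used. The ratio differed between NTY and sham by a mean of -0.08 on the log2 scale (exact permutation p = 1, and 3 libraries against 3 cannot go below 0.1). In the microdissected set, Esr2 was the higher receptor by TPM in 7 libraries and Esr1 in 5. This tally also depends on length. By counts Esr1 was the higher in primary sham 1 (587 against 153) and primordial NTY 2 (555 against 161), where Esr2 was higher by TPM.

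**Figure D3:**
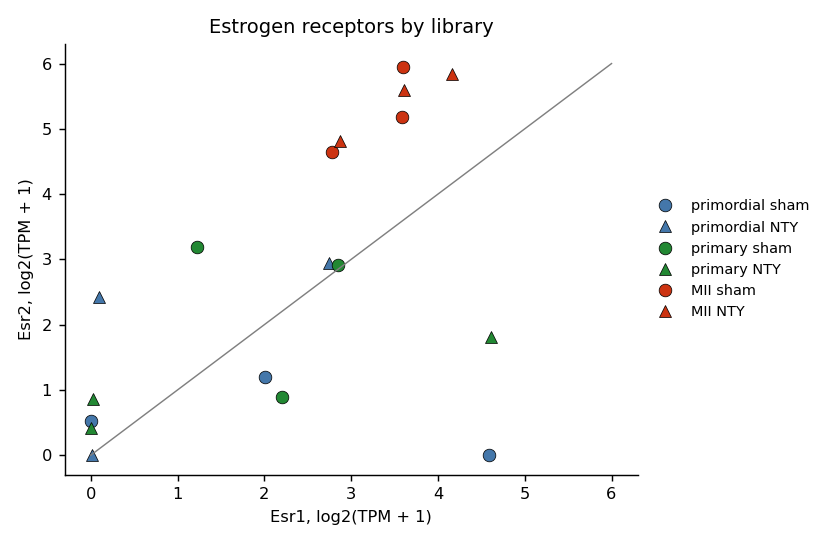
Esr2 against Esr1 as log2(TPM + 1), 1 point per library, with the grey line marking equal levels, colours for stages, circles for sham and triangles for NTY. All 6 MII libraries lie above the line, and the 12 microdissected libraries lie on either side of it.

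The gonadotropin receptors were each high in very few libraries. Lhcgr (chromosome 17, 88716481 to 88791990) had 679 counts in primary sham 1 (28.4 CPM, 38.5 TPM), 391 in primary sham 3 (16.7 CPM, 19.1 TPM) and 0 in the other 16. Against MII, where 3 counts amount to at most 0.347 CPM, they were at least 81.8-fold and at least 48.2-fold higher. In primary sham 1, 2 luteal markers were also raised over the other microdissected libraries, the prolactin receptor Prlr (284 counts) and Sfrp4 (164 counts), and the summed luteal level was 19.1 CPM against 0 to 3.75 CPM elsewhere in the set. In primary sham 3 that sum was 0.342 CPM, and in the 6 MII libraries, where Lhcgr was at 0, it was 104 to 172 CPM. The summed level of 7 theca and steroidogenic stroma markers was 1173 to 1308 CPM in primary sham, including replicate 2, where Lhcgr was at 0. It was 101 to 3363 CPM over the microdissected set. The highest red blood cell marker sum of that set, 40.8 CPM, was also in a primary sham library. The part of these markers in the Lhcgr level was not tested.

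Fshr (chromosome 17, 88984952 to 89200675), which neighbours Lhcgr, had 355, 3 and 0 counts in primordial NTY (25.5 TPM in replicate 1) and 0 in all other microdissected libraries. In MII it had 11, 47 and 20 counts in sham and 3, 0 and 0 in NTY. Lhcgr and Fshr were therefore not found together over 3 counts in any library. Other genes also had such isolated values: of 1583 genes whose highest microdissected count was between 300 and 800, 124 (7.83%) passed 3 counts in at most 1 of the 12 libraries and 282 (17.8%) in at most 2.

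**Figure D4:**
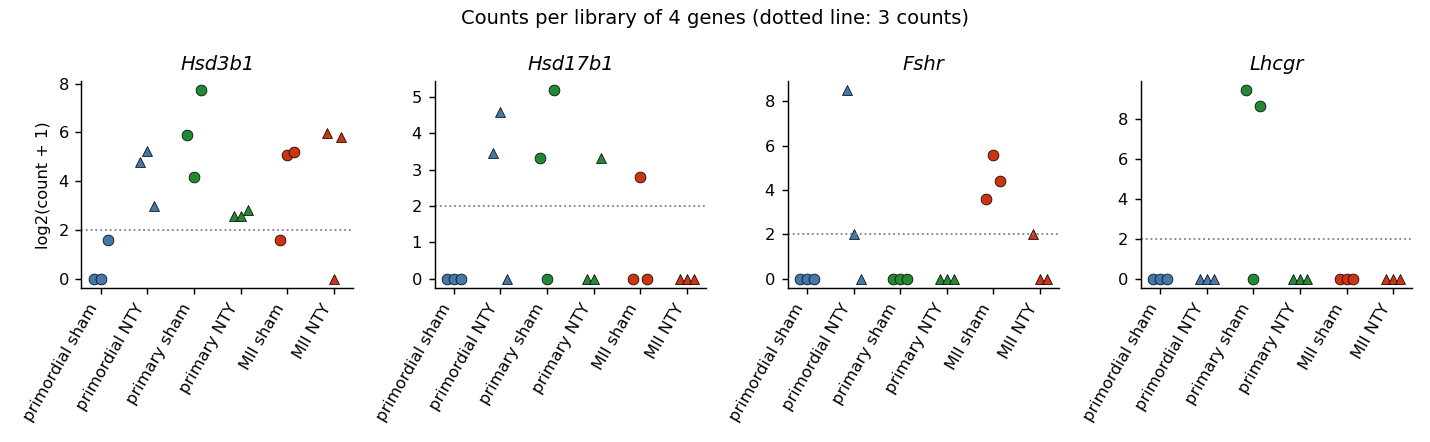
Counts of Hsd3b1, Hsd17b1, Fshr and Lhcgr in each library as log2(count + 1) by group, 1 point per library, with circles for sham, triangles for NTY and a dotted line at 3 counts. Lhcgr is above the line in 2 libraries and Fshr in 4, and Hsd3b1 is higher in NTY at the primordial stage and lower at the primary stage.

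The comparison of the MII and microdissected sets gave 4 of the 7 tested genes as higher in MII by edgeR's quasi-likelihood test, and none as lower. Of all 15929 genes tested, 59.5% passed (42.3% higher and 17.2% lower), so 4 of 7 lay near the background. The pattern of Cyp19a1, Esr2 and Fshr in this contrast was known before these genes were chosen. Cyp19a1 was higher by 11.19 ± 1.45 on the log2 scale (SE, Benjamini-Hochberg adjusted p = 6.6e-05), and this fitted value is no bound, since 11 libraries were at 0. Cyp11a1 was higher by 5.19 ± 1.31 (edgeR adjusted p = 0.00363), Esr2 by 3.91 ± 1.11 (edgeR adjusted p = 0.00557) and Fshr by 3.25 ± 1.23 (edgeR adjusted p = 0.0378). For Fshr, however, 3 of the 6 MII libraries, all of them NTY, were at 3 counts or fewer. Its mean TPM was lower in MII (1.84) than in microdissected libraries (2.14). Hsd3b1 (2.11 ± 0.99, edgeR adjusted p = 0.0744) and Esr1 (0.62 ± 1.46, edgeR adjusted p = 0.763) did not pass. The groups did not overlap for Cyp19a1 and Esr2, 2 of 7, against 23.9% of all genes. Without primordial NTY 3 the number of genes passing was likewise 4.

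The scale of this contrast depended on normalization. The median of all genes was 1.64 with TMM and 3.09 with RLE, a shift of 1.45. Relative to that median, Cyp19a1 was 9.55 higher with TMM and 9.44 with RLE, Cyp11a1 3.54 and 3.38, Esr2 2.26 and 2.35, and Fshr 1.61 and 1.48, whereas Esr1 was -1.03 and -0.83. Of all calls, 71.0% were higher in MII, and 81.4% on log2(TPM + 0.1). Hsd3b1 passed in 5 of 30 alternatives, with RLE (adjusted p = 0.00622), with DESeq2 (adjusted p = 0.000965), against primordial follicles alone (adjusted p = 0.0461) and without primordial sham 3 (adjusted p = 0.0293) or MII NTY 2 (adjusted p = 0.0434).

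An exact two-sided permutation test of the mean log2(CPM + 1) in 6 MII against 12 microdissected libraries was made for each of the 10 genes, unadjusted. The difference was 4.96 for Cyp19a1 and 3.53 for Esr2 (exact permutation p = 5.39e-05 for each, the smallest that 18564 splits can give). It was 1.12 for Cyp11a1 (exact permutation p = 0.000377) and 2.18 for Esr1 (exact permutation p = 0.0753). The exact permutation p of Esr1 was 0.0366 without primordial sham 2 and 0.0346 without primary NTY 1, the 2 libraries with its highest counts. Fshr differed by 0.37 (exact permutation p = 0.634) with primordial NTY 1 and by 0.74 without it (exact permutation p = 0.0063). The edgeR call of Fshr did not pass without primordial sham 2 (adjusted p = 0.0501), primary sham 3 (0.0503) or MII sham 2 (0.0661). Nor did it pass with DESeq2 (adjusted p = 0.0552), with limma on log2(TPM + 1) (0.289) or log2(TPM + 0.1) (0.0595), or against primordial follicles alone by edgeR (0.463), so that 7 of 28 alternatives lost it. Hsd3b1 (difference 0.56, p = 0.262), Hsd17b1 (-0.23, p = 0.248), Lhcgr (-0.73, p = 0.529), Star (0.05, p = 0.819) and Cyp17a1 (p = 1) did not pass this exact test. All 30 alternatives kept the edgeR call of Cyp19a1, and that of Esr2 held in 29, the exception being NTY libraries alone (adjusted p = 0.0984). That of Cyp11a1 was lost against primary follicles alone (adjusted p = 0.194).

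**Figure D5:**
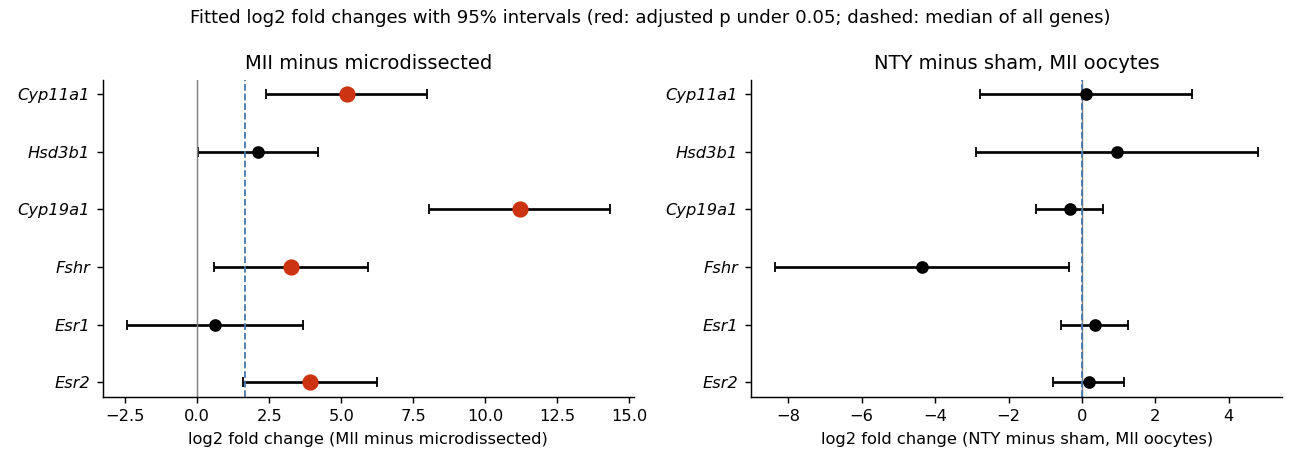
Fitted log2 fold changes with 95% intervals for the tested genes, MII minus microdissected on the left and NTY minus sham within MII on the right, with adjusted p under 0.05 in red and the median of all genes dashed. Cyp19a1, Cyp11a1, Esr2 and Fshr pass on the left, and no gene passes on the right.

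Between NTY and sham in MII oocytes none of the 6 tested genes passed, and edgeR called no gene of 12209 (0.0%), with 280 at an unadjusted p under 0.05. Cyp19a1 differed by -0.33 ± 0.40 (95% interval -1.25 to 0.58), Esr1 by 0.35 ± 0.41 (-0.57 to 1.27) and Esr2 by 0.18 ± 0.42 (-0.78 to 1.14), so the 3 genes most abundant in MII had 95% intervals that ended at or within 1.27 log2 units of no change. Cyp11a1 (0.11 ± 1.28) and Hsd3b1 (0.96 ± 1.69) were measured less closely. Fshr was lower in NTY by a fitted -4.36 ± 1.76 (unadjusted p = 0.0361, edgeR adjusted p = 0.9998), with sham at 11, 47 and 20 counts and NTY at 3, 0 and 0. It was the only tested gene of the 10 whose MII groups did not overlap, against 9.67% of all genes. The adjusted p of all 6 genes was 0.9998. Genes with any count numbered 15442, 18239 and 16142 in MII sham and 13608, 12926 and 12782 in MII NTY. In that number, too, the MII groups did not overlap, and its part in the Fshr counts was not tested.

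Among microdissected libraries, none of the 4 tested genes passed in any comparison by edgeR. The background for NTY against sham was 0.0095% at the primordial stage (1 of 10522 genes) and 0.0% at the primary stage. Between the 2 stages it was 0.0095% among sham libraries and 0.0% among NTY libraries, and for the change of the NTY effect with stage it was 0.0095%. At an unadjusted p under 0.05 these comparisons gave 1145, 858, 976, 1049 and 1246 genes.

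Hsd3b1 was the gene of the 10 whose groups separated. Every primordial NTY library was above every primordial sham library (fitted 4.72 ± 2.76, edgeR adjusted p = 0.546), as for 8.49% of all genes in either direction. Every primary NTY library was below every primary sham library (-3.55 ± 2.60, edgeR adjusted p = 0.896), against 14.1% of all genes. Primary sham was above primordial sham (6.33 ± 2.97, edgeR adjusted p = 0.496, 14.2% of all genes apart), and primary NTY was below primordial NTY (-1.94 ± 2.44, edgeR adjusted p = 0.884, 7.83% apart). DESeq2 gave an adjusted p of 0.0204 for Hsd3b1 in primary against primordial sham. The 12 counts behind these statements ran from 0 to 210.

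Hsd17b1 moved with similar fitted values and did not pass. NTY differed from sham by 6.34 ± 2.91 in primordial follicles (edgeR adjusted p = 0.425) and by -1.81 ± 2.43 in primary follicles (edgeR adjusted p = 1), and primary sham differed from primordial sham by 6.43 ± 2.92 (edgeR adjusted p = 0.482). The difference of the NTY effect was -8.15 ± 3.66 (edgeR adjusted p = 0.351). Since all primordial sham libraries were at 0 for this gene, these folds depend on the prior count and are no bounds.

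Esr2 differed between NTY and sham by 2.49 ± 2.76 in primordial follicles (edgeR adjusted p = 0.832) and by -1.51 ± 2.67 in primary follicles. Esr1 differed by -2.47 ± 3.10 and by 1.55 ± 3.01, and the second value became -8.10 without primary NTY 1, its single high library of that group. Errors of this size leave changes of several log2 units undetectable here.

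Other genes of steroid handling came from 8 lists with 84 matched genes. None of the 63 tested genes passed in any microdissected comparison, and none of 60 passed for NTY against sham in MII. Between the MII and microdissected sets 19 were higher, 22 lower and 29 not called, that is 58.6% of 70, beside 59.5% of all genes, and their median was -1.09 beside 1.64 for all genes. With RLE 24 were higher and 14 lower, and their median was 0.44. Over all genes 6731 were higher and 2744 lower with TMM, and 8090 and 1944 with RLE. None of the listed genes called with TMM changed sign, but several lost or gained the call with RLE, as given below.

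All 10 genes of cholesterol uptake and transport passed with TMM, 6 higher in MII and 4 lower. With RLE 6 were higher and 3 lower, since Soat1 did not pass (adjusted p = 0.0823). Npc1 and Npc2, which release cholesterol from lysosomes, were higher by 4.11 and 5.35, and Stard4, a cytosolic cholesterol carrier, by 6.36. In cholesterol synthesis 1 of 12 was higher, Sc5d (6.80), and 1 lower, while Hmgcs1, the most abundant in MII at a median of 273 TPM, did not pass (0.96 ± 1.17), although with RLE it did (adjusted p = 0.0433) and the list had 3 higher and 1 lower. Of the electron carriers of steroid P450 enzymes, Fdx1, the mitochondrial ferredoxin that serves CYP11A1, was higher by 9.91 and Cyb5a was at -3.97, a call lost with RLE (adjusted p = 0.066). Por, the reductase that serves CYP17A1 and CYP19A1, had a median of 25.2 TPM in MII and did not pass (0.74 ± 1.30).

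Among other steroid-converting enzymes 4 of 8 were higher and none lower, among them Hsd3b7 (5.39) and Srd5a3 (9.29), the latter a polyprenol reductase of protein glycosylation. Among other nuclear and membrane receptors 3 were higher and 3 lower of 8, with the orphan receptor Esrrb higher by 6.50 and Pgrmc1 at -3.10. With RLE this list had 5 higher and 1 lower, and Pgrmc1 did not pass (-1.85, adjusted p = 0.136). Transcription factors of steroid genes were lower in 5 of 8 and higher in none, and with RLE in 4. Those lower with both were Nr5a1 (-10.76), Creb1 (-9.89), Cebpb (-8.22) and Sp1 (-5.80), as TMM values. Gata4 was at -2.70 and did not pass with RLE (-1.53, adjusted p = 0.202), while Nr5a2 did not pass (-2.62 ± 1.54).

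In gonadotropin receptor signalling 2 of 12 were higher and 3 lower, and with RLE 3 and 2. The higher genes were Gpr3, a receptor that keeps oocyte cyclic AMP high (3.86), and Prkar2a, a regulatory subunit of protein kinase A (3.04). Among estrogen receptor coregulators 2 of 8 were higher and 5 lower, with Ncoa3 at 3.89 and Crebbp at -3.69. With RLE 2 were higher and 3 lower, since Ncoa2 (adjusted p = 0.629) and Ncor1 (adjusted p = 0.689) did not pass. Every fold change in these lists is a log2 value from the same edgeR fit.

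For the 5 genes with at least 10 counts in at least 6 libraries, the genes whose levels ran most like them were ranked by Pearson correlation of log2(CPM + 1), as a description. Over the 18 libraries, which differ in library method and depth, Cyp19a1 was nearest to Gm43269, Nqo1 and Gm45304 (r = 0.999, 0.998 and 0.998), Esr2 to Mrpl42, Armc10 and Stard13 (0.952, 0.952 and 0.946), Esr1 to Ppil2, 4930402H24Rik and Gnpnat1 (0.950, 0.902 and 0.892), Cyp11a1 to Avpi1, Panx2 and BC031181 (0.921, 0.916 and 0.907) and Hsd3b1 to Fancl, Osbpl7 and Nyap1 (0.797, 0.785 and 0.783). For Cyp19a1 and Esr2 the points fall into the same 2 sets that did not overlap. Over the 6 MII libraries alone, Cyp19a1 was nearest to Serpinc1 (0.994), Oat (0.993) and Fastkd5 (0.988), Esr1 to Asah2 (0.999), Gm7030 (0.995) and Mospd2 (0.991), and Esr2 to Ptma (0.990), Max (0.990) and Spats2 (0.971). These are the highest of 15143 genes ranked over 6 points. Within the same 6 libraries, r was 0.725 between Cyp19a1 and Esr1, 0.669 between Cyp19a1 and Esr2 and 0.820 between Esr1 and Esr2.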

How the data were processed

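The authors deposited raw counts of reads per gene (whole numbers, not normalized) and TPM values for 18 mouse oocyte libraries. The submitters' processing notes name Trim Galore 0.4.1, TopHat2, featureCounts and mm10, with no roles or settings. Coordinates and overlaps came from GENCODE M21 (GRCm38), and promoters from RefSeq. The members and lists were chosen with earlier results of these data known. All 10 members were named, with the listed genes that passed a test within a set or had the highest TPM per list (up to 3 for each set), and the 3 most alike genes. Soat1, Ncor1, Nr5a1, Creb1, Cebpb, Sp1 and some cell type markers were named after their values were seen.

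Counts were tested with edgeR 4.0.16 (R 4.3.3, quasi-likelihood, robust, TMM, filterByExpr by group, Benjamini-Hochberg adjusted p under 0.05 over all genes). The 12 microdissected libraries shared a fit, the 6 MII libraries had their own, and the contrast of sets used all 18. Levels used log2(CPM + 1) with TMM library sizes, in Python 3.11.15. Reads have no molecular identifiers. Alternatives were RLE, an any-count filter, a replicate block, DESeq2 1.42.0 without its Cook filter, limma 3.58.1 (voom with weights, log2(TPM + 1), log2(TPM + 0.1)), subsets of groups, primary NTY 2 and 3 summed, and each library left out. Scripts were tested on simulated data, where recovery was required only at a dispersion (spread between libraries beyond counting error) of 0.05. The common dispersion of the data was 0.542 in the MII fit, 2.55 over all libraries and 3.59 in the microdissected fit. That test therefore does not show recovery at the spread of these data.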

Additional observations from a re-analysis of the deposited data

Results flagged for a closer look

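Hsd3b1 went in opposite directions with NTY at the 2 follicle stages. All 3 primordial NTY libraries (27, 37 and 7 counts) were above all 3 primordial sham libraries (0, 0 and 2), and all 3 primary NTY libraries (5, 5 and 6) were below all 3 primary sham libraries (59, 17 and 210). The fitted difference of the NTY effect, primary minus primordial, was -8.27 ± 3.78 on the log2 scale and did not pass (unadjusted p = 0.0339, edgeR adjusted p = 0.364), although DESeq2 gave an adjusted p of 0.0165. The adjusted p ranged from 0.0165 to 0.647 over 20 alternatives. Of all 10522 genes tested, 76 (0.722%) separated at both stages in opposite directions, and 67 of these had the direction of Hsd3b1. Primary NTY 2 and 3 may be related material, and primordial NTY 3 had the lowest summed level of oocyte growth genes (1.89 CPM). Genes with any count numbered 12955, 10565 and 13755 in primary sham and 10255, 7474 and 9611 in primary NTY, without overlap. The primordial groups overlapped in that number (6147, 9229 and 9852 in sham, 10493, 12461 and 6524 in NTY). The part of the number of genes found in the Hsd3b1 counts was not tested.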

How the results depend on the processing

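Counts of called genes moved by over 1.5 times in 3 alternatives and not in 118: DESeq2 called 1 of the 10 genes, Hsd3b1, in primary against primordial sham and 1, again Hsd3b1, in the difference of the NTY effect, and NTY libraries alone gave 2 calls between the sets instead of 4. Fitted fold changes kept direction and side of the threshold in 519 alternatives, became called in 8, lost the call in 9 and reversed in 21. The replicate block, fitted although same-numbered libraries did not deviate together (mean correlations -0.02 to 0.03), left 4 calls between the sets and 0 elsewhere and turned Cyp11a1 for NTY in MII from 0.11 to -0.44. For that contrast Cyp11a1 was -0.28 with voom, -0.10 on log2(TPM + 1) and -0.34 on log2(TPM + 0.1), and Hsd3b1 was -1.41 with voom and -0.11 on log2(TPM + 0.1). Leaving out each library gave Cyp11a1 -1.16 to 0.60. Esr1 among microdissected libraries turned most often. NTY against sham in primary follicles was -3.45 with voom, -0.55 on log2(TPM + 1) and -2.30 on log2(TPM + 0.1), primary against primordial sham 1.17 with voom and 0.73 on log2(TPM + 0.1), primary against primordial NTY -0.33 with voom, and the difference of effects -1.51 with voom and -0.27 on log2(TPM + 0.1). With each library left out, Esr1 ranged over -7.77 to 0.047 and -8.10 to 2.17 (NTY against sham, primordial and primary), -2.16 to 0.97 and -7.14 to 7.80 (primary against primordial, sham and NTY) and -5.64 to 9.31 (difference). Between the sets, the Esr1 level difference was 2.89 with plain library totals and 1.74 on log2(TPM + 1), both under 0.05 by exact permutation, and 1.92 to 2.56 with each library left out. In the same way the Star difference was -0.13 to 0.12 and the Fshr difference 0.11 to 0.74. Esr1 passed the fit between the sets with voom (3.55). The cause was not tested. Counts near 3 in the microdissected libraries limit what can be seen there.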
